A study of Mus musculus with 7 samples.

Results

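Island shores away from promoters were described at single cytosine sites. A shore is the stretch that flanks a CpG island, a run of DNA dense in CpG dinucleotides, and the sites were those that the authors' annotation places in a shore and, by gene structure, in an exon, an intron or an intergenic stretch, so that shore sites labelled promoter were left out. This gave 1416 of the 18189 sites of a table of 6 libraries, here the rescue table (318 exon, 648 intron and 450 intergenic sites), and 1817 of the 21989 sites of a table of 3 libraries, here the knockdown table (390 exon, 880 intron and 547 intergenic sites). The tables share 974 of these sites, which are 68.8% of the first set and 53.6% of the second, and the wild-type reads were identical at all 974. The sites lay 1002 bp or more from the transcript start the authors list as nearest, with a median of 1937 bp in the rescue table and 1927 bp in the knockdown table, and the annotation alone chose them.

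The series measured DNA methylation by reduced representation bisulfite sequencing, in which restriction enzymes select CpG-rich fragments and bisulfite leaves only methylated cytosines reading as C. All libraries came from J1 mouse embryonic stem cells grown in serum with leukemia inhibitory factor. The Mof knockdown group was a stable knockdown of Mof (1 library). The 3KR rescue group was a Uhrf1-/- colony that carried human UHRF1 with lysine changed to arginine at 3 positions, K667R, K668R and K670R (1 library). The WT rescue group was a Uhrf1-/- colony given human UHRF1 of wild-type sequence (1 library). The Uhrf1-/- cells themselves gave 2 libraries, and wild-type J1 cells gave 2. Per the series' design text, the UHRF1 plasmids carried a flag-myc tag and rescue cells were selected with hygromycin and picked as single colonies, so in each rescue the clone and the transgene cannot be told apart. Separate cultures are not stated in the labels for the libraries of any group, so a p-value speaks only of the spread among these libraries, and that spread may be technical. Going by the series title, the groups ask what MOF-mediated UHRF1 acetylation does for methylation maintenance.

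UHRF1 recognises hemimethylated CpGs behind the replication fork and brings in the maintenance methyltransferase DNMT1, so that the new strand copies the methylation of the old one. MOF is a lysine acetyltransferase best known for acetylating histone H4. CpG islands are mostly free of methylation while the bulk of the genome is methylated, and shores form the slope between them, where methylation is known to vary between tissues and to be disturbed in cancer.

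Promoters and the shore sites near them can be read side by side at a few genes for which the 250 bases before a RefSeq transcript start (GRCm38.p6, the assembly of mm10) held measured sites with shore sites within 4 kb of the start. They are shown to give the context of the sites: of the listed sites that fall in any RefSeq promoter window, 558 of 559 in the rescue table and 614 of 616 in the knockdown table were the C of a CG. Each sequence runs 5′ to 3′ on the gene's strand, and capitals mark the CpGs measured in the table named below.
Top3b (chr16:16870486-16870735, plus strand): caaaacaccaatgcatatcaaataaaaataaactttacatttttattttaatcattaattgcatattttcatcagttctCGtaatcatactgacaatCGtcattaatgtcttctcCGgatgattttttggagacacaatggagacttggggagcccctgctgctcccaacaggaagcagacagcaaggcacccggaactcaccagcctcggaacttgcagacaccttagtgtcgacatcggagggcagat
Nrtn (chr17:56757549-56757798, minus strand): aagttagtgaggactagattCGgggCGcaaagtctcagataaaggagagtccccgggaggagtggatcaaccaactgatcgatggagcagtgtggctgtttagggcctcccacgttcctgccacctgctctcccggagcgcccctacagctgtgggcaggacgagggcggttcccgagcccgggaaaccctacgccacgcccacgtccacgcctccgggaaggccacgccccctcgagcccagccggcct
Lhx1 (chr11:84525535-84525784, minus strand): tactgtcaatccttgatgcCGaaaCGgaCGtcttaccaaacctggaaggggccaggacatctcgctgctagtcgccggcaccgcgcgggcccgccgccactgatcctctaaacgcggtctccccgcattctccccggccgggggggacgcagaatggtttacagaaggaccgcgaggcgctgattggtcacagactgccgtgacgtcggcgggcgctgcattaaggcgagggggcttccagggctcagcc
Fendrr (chr8:121083111-121083360, minus strand): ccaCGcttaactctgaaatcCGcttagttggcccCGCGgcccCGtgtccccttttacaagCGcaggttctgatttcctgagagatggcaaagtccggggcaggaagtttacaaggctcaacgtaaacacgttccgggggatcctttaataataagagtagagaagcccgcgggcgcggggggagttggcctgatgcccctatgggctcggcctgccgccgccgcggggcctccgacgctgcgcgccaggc
Plekhd1os (chr12:80693953-80694202, minus strand): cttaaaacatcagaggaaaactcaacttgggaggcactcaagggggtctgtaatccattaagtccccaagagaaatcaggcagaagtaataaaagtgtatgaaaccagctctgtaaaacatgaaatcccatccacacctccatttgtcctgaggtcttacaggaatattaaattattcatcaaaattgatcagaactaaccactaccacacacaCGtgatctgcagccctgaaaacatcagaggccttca

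At Top3b, which encodes a DNA topoisomerase, the window holds 7 CpGs, and its 3 measured sites averaged 0% in 3KR rescue, 4.44% in WT rescue, 0% and 5.56% in the Uhrf1-/- libraries and 0% in both wild-type libraries of the rescue table. The 2 intronic shore sites 2090 and 2233 bp downstream averaged 8.33% in 3KR rescue, 59.8% in WT rescue, 0% and 25% in Uhrf1-/- and 78.6% and 85% in wild type, on 12 to 53 reads a library. In WT rescue and wild type these sites were methylated where the promoter sites, themselves in an annotated shore, were not. At Nrtn, the gene of the neurotrophic factor neurturin, 2 sites in a window of 19 CpGs averaged 3.12% in 3KR rescue, 3.85% in WT rescue, 3.70% and 0% in Uhrf1-/- and 0% in both wild-type libraries. Its 2 intronic shore sites, 1657 and 1802 bp downstream, averaged 4.17%, 45.9%, 7.42% and 2.63%, and 20.6% and 33.8% in the same order of libraries. At Lhx1, a homeobox factor of kidney and head development, 3 exonic shore sites 1234 to 1327 bp downstream of a window with 26 CpGs stayed at or under 2.78% in all 6 libraries, so this shore was as free of methylation as its promoter.

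In the knockdown table, the 6 sites in the window of Fendrr, a long non-coding RNA gene, averaged 0% in Mof knockdown and 2.78% and 0% in wild type. The 5 intronic shore sites 3573 to 3718 bp downstream averaged 24% in Mof knockdown (28 reads) and 47.6% and 49.3% in wild type (49 and 39 reads). The window of Plekhd1os, an antisense transcript gene, holds 1 CpG, which is itself a shore site labelled intron by the authors. It measured 33.3% of 12 reads in Mof knockdown and 66.7% and 100% of 6 reads each in wild type. Such gaps were not seen at every gene of this kind. Shore sites near Arid3b measured 88.9% in Mof knockdown, between the 100% and 62.2% of wild type, on 16 to 23 reads a library. Those of Top3b measured 73.9%, against 78.6% and 85%, and those of Nrtn 14.0%, against 20.6% and 33.8%. The shore sites of Lhx1 were at 0% in Mof knockdown and in both wild-type libraries.

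Summed over the shore sites, the libraries held between 18806 and 43059 reads in the rescue table and between 24724 and 34724 in the knockdown table. The median depth per site was 14 reads in 3KR rescue, 23 in WT rescue, 14 and 11 in Uhrf1-/- and 12 and 15 in wild type, and in the knockdown table it was 10 in Mof knockdown and 12 and 14 in wild type. A single read shifts a site of 10 reads by 10 percentage points, and the results therefore rest on averages over sites or on regions, which are runs of at least 3 sites of 1 annotation with gaps of at most 100 bp. Replicates differed beyond sampling noise: the mean chi-square of their reads per degree of freedom was 2.10 for the Uhrf1-/- libraries and 2.59 for the wild-type ones, and sampling noise alone would give about 1.

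Without Uhrf1, the shores lost most of the methylation they had. Mean methylation over the 1416 sites was 5.31% and 6.34% in the Uhrf1-/- libraries, against 33.6% and 35.8% in the wild-type libraries. The groups did not overlap, and their means were 5.83% ± 0.729 in Uhrf1-/- and 34.7% ± 1.59 in wild type (SD, n = 2 each), a difference of -28.9 percentage points. Over the 45 sites with at least 20 reads in these libraries it was -15.8 points. Means over libraries were not tested, since with 2 libraries a group an exact permutation test gives a two-sided p of 1 in 3 at best. Uhrf1-/- kept 16.8% of the wild-type mean (14.8% to 18.9% over the pairs of libraries). Outside islands and shores, off promoters, it kept 19.8% (19.2% to 20.4%), and at shore promoters 19.6% (17.9% to 21.5%). At island sites off promoters the share was lower than at these shores, at 16.1% (13.6% to 18.97%). It was 18.2% (16.99% to 19.5%) at promoters outside islands and shores and 44.7% (40.2% to 49.8%) at island promoters. A low share was thus not particular to shores off promoters, and the differences between these classes were not tested.

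The share of sites in the middle and upper classes fell away. In Uhrf1-/- 89.5% and 87.1% of the sites were under 20% methylated, and 1 site of 1416 in each library was over 80%. In wild type 49.6% and 45.3% were under 20%, and 15.6% and 17.3% were over 80%. Exon, intron and intergenic sites differed little: they averaged 5.97% ± 0.752, 5.95% ± 0.798 and 5.55% ± 0.612 in Uhrf1-/- against 35.2% ± 2.39, 34.3% ± 1.64 and 34.99% ± 0.962 in wild type (SD, n = 2 each). Shores 5 kb or more from a listed start were the most methylated, at 5.99% and 7.54% in Uhrf1-/- and 41.6% and 43.4% in wild type (303 sites), while those 1 to 2 kb away measured 4.88% and 5.66% against 31.8% and 32.8% (730 sites). All 19 autosomes were lower in Uhrf1-/-, by mean differences between -47.6 points on chromosome 17 (25 sites) and -15.8 points on chromosome 6 (54 sites).

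**Figure D1:**
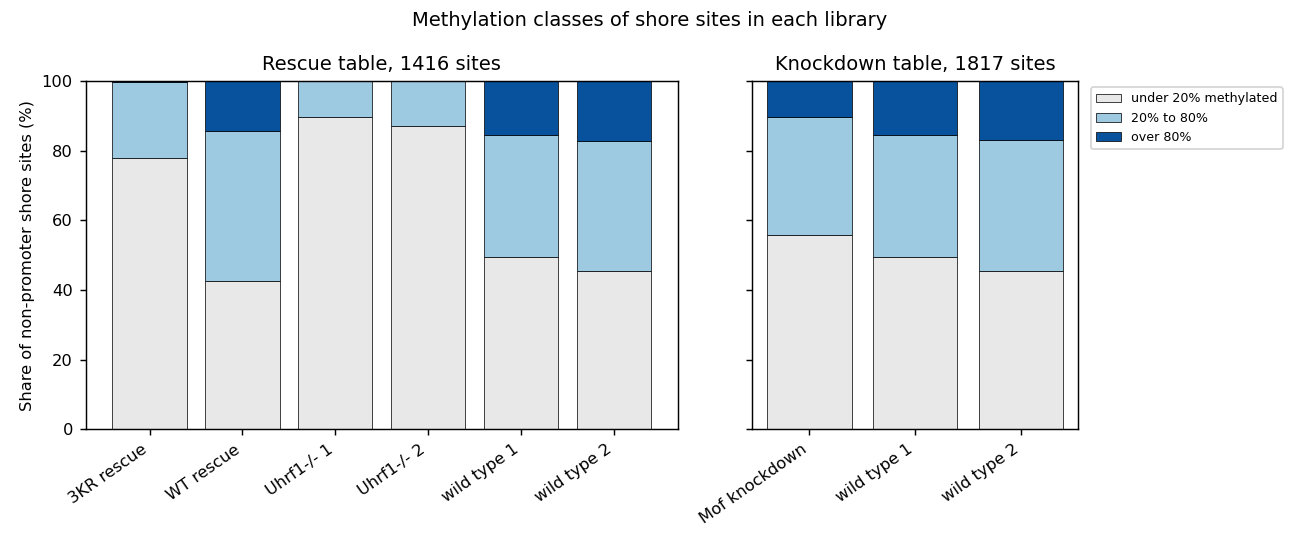
Share of non-promoter shore sites (%, vertical axis) in 3 methylation classes for each library, with the rescue table on the left (3KR rescue, WT rescue, Uhrf1-/- and wild type) and the knockdown table on the right. In Uhrf1-/- 89.5% and 87.1% of sites lie under 20% methylated and in 3KR rescue 77.9%, against 42.6% in WT rescue and 49.6% and 45.3% in wild type.

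**Figure D2:**
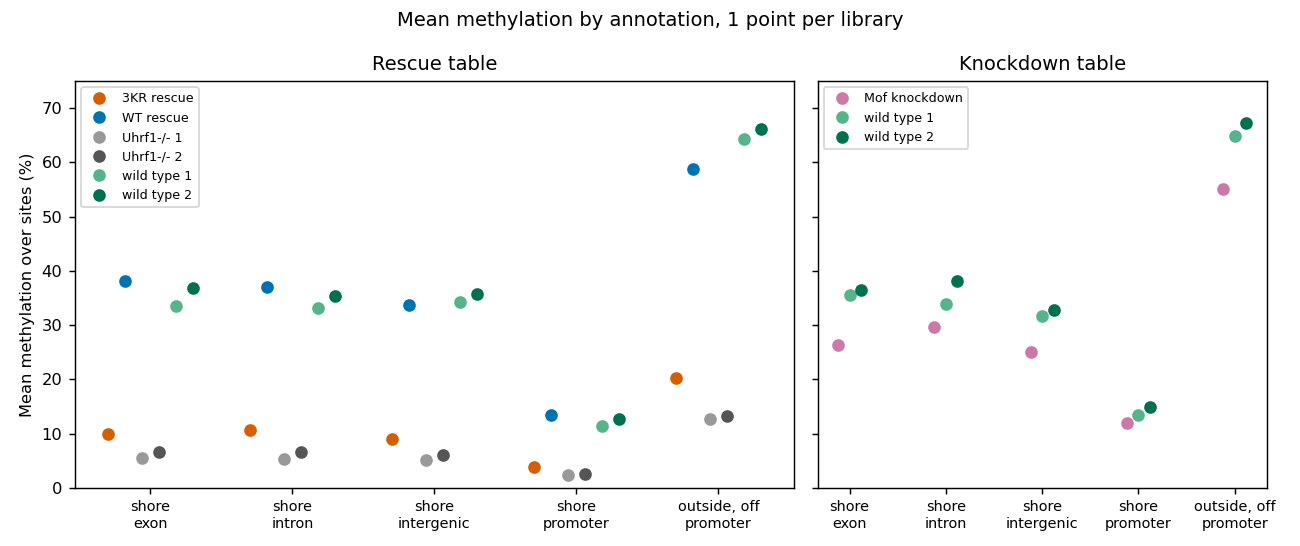
Mean methylation over sites (%, vertical axis) by annotation, 1 point per library, for shore sites in exons, introns and intergenic stretches and, for comparison, shore promoters and sites outside islands and shores off promoters. Shore means lie between 5.12% and 6.52% in the Uhrf1-/- libraries and between 33.1% and 36.9% in the wild-type libraries of the rescue table in each of the 3 annotations, and Mof knockdown lies below both wild-type libraries in each.

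To compare shores with other sites at a like starting level, sites were binned on the first wild-type library and the second was read as a re-measurement. At shore sites over 80% methylated (221 sites), Uhrf1-/- averaged 11.1% and 14.5% and the second wild-type library 80.9%. Outside islands and shores the same bin (4728 sites) stood at 16.8% and 17.7% in Uhrf1-/- and 85.2% in wild type. Uhrf1-/- thus kept 15.8% at shores and 20.2% outside, and 14.1% and 17.4% in the bin of 20% to 80%. With the wild-type libraries swapped the shares were 15.5% and 20.4%, and 15.7% and 18.3%. The share at shores was below that outside in both bins and under both choices of library. Shore promoters, whose share over all their sites was above that of the other shores, kept 15.3% (over 80%) and 12.4% (20% to 80%), or 14.6% and 15.2% with the libraries swapped. These shares lie below those of non-promoter shores, so a low share was also seen at shore promoters, and the differences were not tested. Taken over all sites whatever their wild-type level, and with at least 10 reads in both Uhrf1-/- libraries, 358 of 712 shore sites (50.3%) were at 0% in both, against 1289 of 5233 sites outside (24.6%), and 5 shore sites (0.702%) were at least 30% in both, against 275 sites outside (5.26%). The starting levels differed, since 38.5% and 36.2% of all shore sites were at 0% in the wild-type libraries, against 15.5% and 11.6% outside.

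Of these 5 sites, 4 are described here. They were an exonic site of Zfhx3, a large homeobox factor (35.7% of 14 reads and 45% of 20 reads in Uhrf1-/-), an intronic site of the endosomal tether gene Vps8 (42.9% and 60%), an intronic site of Gm7115 (30.8% and 40%) and a site 1333 bp from Epb41l5, the gene of a cytoskeletal adaptor (35.7% of 28 reads and 44.4% of 18 reads). Wild type was between 45.5% and 100% at these 4. They were chosen by their Uhrf1-/- values and carry no test.

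Region by region, Uhrf1-/- was called lower at 99 of 211 shore regions and higher at 0 (quasi-likelihood test of edgeR, at a Benjamini-Hochberg adjusted p under 0.05 over all 2634 regions and a gap of 20 points or more). Of all the regions, 59.9% were called lower and 0 higher. The share at shores was below that background. Of the 120 shore regions at 20% or more in wild type 99 were called (82.5%), against 85.9% over all such regions. An unadjusted edgeR p under 0.05 was reached by 117 lower shore regions and 0 higher ones, beside 1719 lower and 5 higher of all 2634 regions. At shores limma called 90 regions lower. The count rested on the libraries: it was 0 without the first Uhrf1-/- library (where 89 had an unadjusted p under 0.05), 56 without the second, 84 without the first wild-type library and 65 without the second. Over single sites with at least 10 reads, 99 of 424 were called lower and 0 higher, beside 29.3% lower over all 4603 sites tested. Leaving out any 1 of the 4 libraries left 0 site calls (99 to 115 lower at an unadjusted p under 0.05). With all 4, limma called 107 shore sites. An unadjusted edgeR p under 0.05 was reached by 166 lower shore sites and 0 higher ones, beside 2007 lower and 15 higher of all 4603 sites. The authors' deposited table lists 686 of 1416 shore sites with a q-value under 0.05 and at least 20 points lower in Uhrf1-/- and 3 higher, beside 61.3% lower and 0.269% higher over all sites.

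The 10 largest falls lay on 9 chromosomes. In an exon of Cyp26a1, the enzyme that breaks down retinoic acid (chr19:37701064-37701110, 3 sites), methylation was 0% and 3.70% in Uhrf1-/- and 100% and 95.2% in wild type, on 21 to 27 reads a library (difference -95.8 points, edgeR adjusted p = 0.00012). In an intron of Ror2, a receptor tyrosine kinase of Wnt5a signalling (chr13:53111808-53111924, 6 sites), it was 0% and 15.3% in Uhrf1-/- and 84.7% and 100% in wild type, on 50 to 72 reads (-84.7 points, edgeR adjusted p = 7.74e-06). At an intergenic region 24610 bp from the nearest protein-coding gene, Zfp266, listed nearest to the start of Gm46142 (chr9:20546029-20546076, 3 sites), Uhrf1-/- measured 4.88% and 5.56% and wild type 83.3% and 93.0% (-83.0 points, edgeR adjusted p = 8.66e-05).

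The next falls were in an exon of Prep, a prolyl endopeptidase (chr10:45160036-45160135), an intron of Eml1, a microtubule-binding protein (chr12:108421414-108421433), an exon of Ntn1, the axon guidance cue netrin-1 (chr11:68211595-68211616), and 1204 bp from Chmp4c, a membrane-scission subunit (chr3:10365716-10365769). They differed by -80.5, -80.4, -77.0 and -76.9 points (edgeR adjusted p = 0.000477, 5.64e-05, 8.15e-05 and 0.00105). The last 3 of the 10 lay 1369 bp from Heyl, a Notch-responsive repressor (chr4:123232103-123232187, 0% and 4.17% in Uhrf1-/-, 83.3% and 69.4% in wild type), 1162 bp from Mcat, a mitochondrial fatty acid synthesis enzyme, at a site labelled intron (chr15:83556921-83557078, 5.56% and 2.86%, against 72.5% and 81.2%), and 385 bp from Epn3, an endocytic adaptor, with the start of Spata20 listed as nearest (chr11:94489140-94489214, 14.9% and 16.7%, against 89.7% and 86.4%). All 10 were chosen as falls with no overlap of libraries. None was called by edgeR without the first Uhrf1-/- library, with Benjamini-Hochberg adjusted p between 0.0514 and 0.0715, and the call at Chmp4c was also lost without the second (adjusted p = 0.0521). The highest Uhrf1-/- means among regions of at least 30 reads a library were in introns of Cdc42bpb, a kinase acting downstream of Cdc42 (16.7% and 41.2% in Uhrf1-/-, 90.6% and 87.5% in wild type), and Chrna4, a nicotinic receptor subunit (9.57% and 36.8%, against 89.7% and 95.3%), and in an exon of Ephb2, an ephrin receptor (30% and 12.8%, against 73.3% and 81.1%). The Uhrf1-/- libraries lay far apart at all 3.

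**Figure D3:**
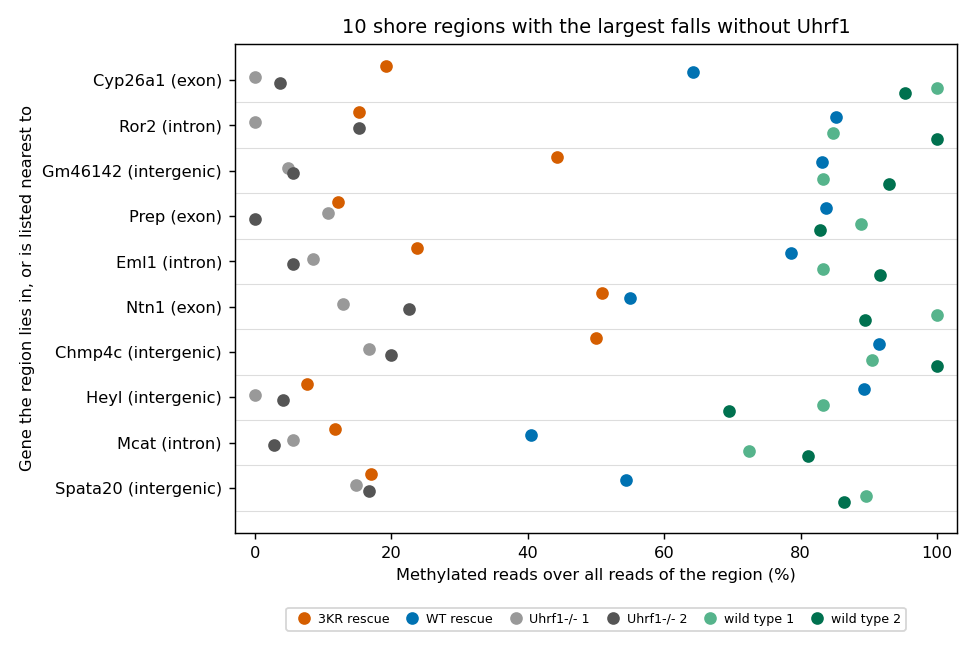
Methylation (methylated over all reads of the region, %, horizontal axis) of the 10 shore regions with the largest falls in Uhrf1-/-, 1 point per library. Uhrf1-/- lies between 0% and 22.6% and wild type between 69.4% and 100%, while WT rescue runs between 40.4% and 91.5% and 3KR rescue between 7.69% and 50.9%.

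In the colony with wild-type human UHRF1, shore methylation stood at about the wild-type mean. The mean was 36.2% in WT rescue, against 5.31% and 6.34% in Uhrf1-/-, a difference of 30.4 points. This is 105% of the loss (101% to 110% over the pairs of libraries), where sites outside islands and shores off promoters regained 87.4% (85.8% to 89.0%). Shore promoters regained 115% (107% to 124%), island sites off promoters 106% (97.5% to 115%) and island promoters 112% (101% to 126%), so a full regain was not particular to shores off promoters. The share varied with the starting level. Binned on the first wild-type library, shores regained 87.2% (over 80%), 94.7% (20% to 80%) and 186% (under 20%). Outside islands and shores, off promoters, these shares were 83.3%, 86.0% and 123%. With the wild-type libraries swapped, they were 86.2%, 112% and 251% at shores and 85.6%, 90.6% and 167% outside. The differences were not tested. Exon shores regained 110%, intron shores also 110% and intergenic shores 95.5%. With 1 library, the rescue has no replicate check. With at least 10 reads, 326 of 595 sites stood 20 points or more higher in WT rescue than the Uhrf1-/- mean and 1 was lower, beside 61% higher and 0.122% lower over all sites of the table. Between the 2 Uhrf1-/- libraries 42 of 712 shore sites stood higher in the second by 20 points and 32 lower, beside 8.41% and 7.55% over all sites. With a spread borrowed from the replicated groups, edgeR called 7 of the 595 sites higher (157 at an unadjusted p under 0.05).

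Over regions, 174 of 211 lay above both Uhrf1-/- libraries in WT rescue, against 83.2% over all regions, and 120 were at least 20 points higher, against 66.9%. The named regions for single libraries are the largest differences among regions of 30 reads or more a library. The gain among these was largest at the region listed with Gm46142, at 83.1% of 83 reads in WT rescue and 4.88% and 5.56% in Uhrf1-/-, and in Ror2, at 85.3% against 0% and 15.3%. The next were a region 119328 bp from Spring1 (chr5:118382442-118382531), at 88.1% against 13.3% and 17.0%, and an exon of Tbkbp1, an adaptor of the kinase TBK1 (chr11:97148656-97148701), at 77.5% against 1.61% and 8%. At the 2 last regions the wild-type libraries lay far apart, at 100% and 58.2% near Spring1 and at 22.9% and 43.9% in Tbkbp1. No region fell by 20 points, and the one named below Uhrf1-/-, in Tnrc18, differed by -2.12 points (1.42% against 1.82% and 5.26%).

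Poorly methylated shores stood higher and highly methylated ones lower in WT rescue than in wild type, with like means. This comparison and that of Uhrf1-/- share the wild-type libraries, and both rescues were set against the same Uhrf1-/- libraries. WT rescue averaged 36.2%, against 33.6% and 35.8% in wild type, a difference of 1.49 points that is smaller than the SD between the wild-type libraries. Among sites under 20% methylated in the first wild-type library (702 sites), WT rescue measured 13.6% and the second wild-type library 8.38%. Among sites over 80% (221 sites), it measured 72.2% against 80.9%. With the libraries swapped, the values were 11.1% against 5.73% (642 sites) and 69.7% against 78.9% (245 sites), so both directions held under both choices. The same directions were seen elsewhere with bins on the first wild-type library: WT rescue measured 5.94% against 3.79% in the lowest bin and 68.5% against 78.0% in the highest at shore promoters, and 18.4% against 15.8% and 73.8% against 85.2% outside islands and shores. In the bin between, WT rescue was -2.52 points from wild type under the first choice and 4.80 points under the second. By class, 14.3% of sites were over 80% in WT rescue, against 15.6% and 17.3% in wild type, and 42.6% were under 20%, against 49.6% and 45.3%. Of 1416 sites, 425 were at exactly 0% in WT rescue and 545 and 513 in wild type; WT rescue is the deeper library, at a median of 23 reads against 12 and 15, and the part of depth in this share was not tested.

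**Figure D4:**
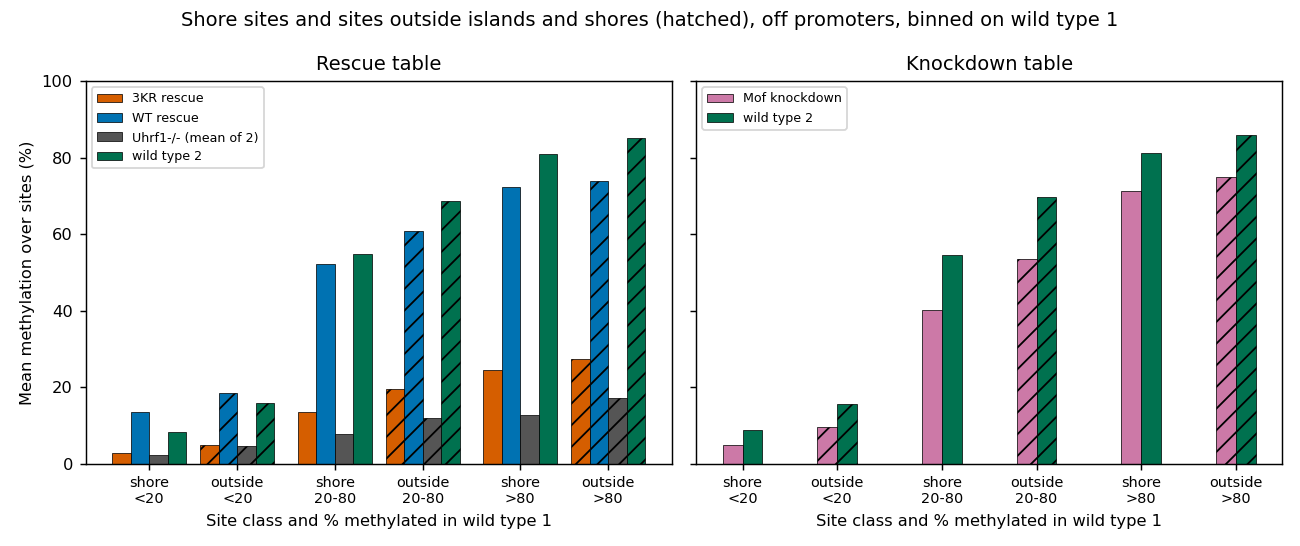
Mean methylation over sites (%, vertical axis) after binning sites on the first wild-type library (under 20%, 20% to 80%, over 80%), for shore sites (plain bars) and sites outside islands and shores off promoters (hatched bars), with the rescue table on the left and the knockdown table on the right. At shores WT rescue stands at 13.6% against 8.38% in wild type 2 in the lowest bin and at 72.2% against 80.9% in the highest.

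Of 721 shore sites with at least 10 reads, 94 were at least 20 points lower in WT rescue than the wild-type mean and 98 higher, beside 17% lower and 8.56% higher over all sites. The second wild-type library against the first gave 67 lower and 106 higher of 768, beside 9.07% and 13.3% over all sites. No site was called in either direction by edgeR when it borrowed the replicated groups' spread (0 lower and 0 higher, with an unadjusted p under 0.05 at 10 lower and 17 higher sites). The authors' deposited table lists 130 of 1416 shore sites with a q-value under 0.05 and at least 20 points lower in WT rescue than in wild type and 167 higher, beside 13.5% lower and 6.54% higher over all sites. By place, WT rescue was 3.11 points above wild type 1 to 2 kb from a start and 3.08 points above at 2 to 5 kb. It differed by -4.41 points at 5 kb or more, and by 3.75 points downstream and -1.60 points upstream of the listed start.

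Regions above wild type in WT rescue were an exon of Mroh6 (chr15:75885399-75885450, 7 sites), at 79.7% of 69 reads against 13.2% and 38.1%, the exon of Tbkbp1, at 77.5% against 22.9% and 43.9%, an exon of Chst5, a carbohydrate sulfotransferase (chr8:111890904-111890982, 4 sites), at 32.0% of 103 reads against 4.76% and 0%, and an intron of Rasgrp2, an activator of the small GTPase Rap (chr19:6414574-6414694, 7 sites), at 62.5% of 344 reads against 28.4% and 38.9%. In these 4 the 95% Wilson interval of WT rescue, which covers counting error only, lay above both wild-type values. Regions below wild type were 12667 bp from Nkx6-1, a homeobox factor of pancreatic and neural cells (chr5:101646399-101646517, 5 sites), at 19.3% of 135 reads against 61.4% and 64.5%, in Ntn1, at 55% against 100% and 89.5%, in Chrna4, at 55.8% against 89.7% and 95.3%, and at Mcat, at 40.4% of 225 reads against 72.5% and 81.2%. These regions were chosen as the largest differences, and their sizes are descriptions.

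In the colony with the 3 lysines changed, most of this methylation was missing. The shore mean was 9.92% in 3KR rescue, against 36.2% in WT rescue, a difference of -26.3 points, and 0.282% of sites were over 80% methylated in 3KR rescue against 14.3%. Exon shores measured 9.93% against 38.2%, intron shores 10.6% against 37.0% and intergenic shores 8.91% against 33.7%. All 19 autosomes were lower, by -38.7 to -13.7 points. With the same read minimum, 460 of 916 sites were 20 points or more lower in 3KR rescue and 6 higher, beside 57% lower and 0.966% higher over all sites. Each group is 1 colony and 1 library, so the difference compares 2 libraries; with a borrowed spread edgeR called 0 sites lower (115 at an unadjusted p under 0.05).

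Of the 211 regions, 181 were lower in 3KR rescue than in WT rescue, against 83.4% over all regions. At least 20 points separated 102 of them, against 62% over all regions, and 0 were higher by 20 points, against 0.266%. The largest gaps, at 30 reads or more, were in an exon of Etohd2 (chr13:59771826-59771892), at 3.45% of 58 reads in 3KR rescue and 78.2% of 87 reads in WT rescue, in Tbkbp1, at 3.23% against 77.5%, in Prep, at 12.2% of 74 reads against 83.8% of 74 reads, and in Ror2, at 15.2% of 46 reads against 85.3% of 95 reads. In each, the 95% Wilson intervals of the 2 libraries, which cover counting error only, did not overlap. The regions were chosen for their gaps, so this is no test of a difference. The regions named as higher in 3KR rescue were all poorly methylated, at 10.8% against 1.39% in Chd3, a nucleosome remodeller, 7.35% against 0% in Zfp697 and 3.39% against 0% in Il17d, an interleukin gene.

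**Figure D5:**
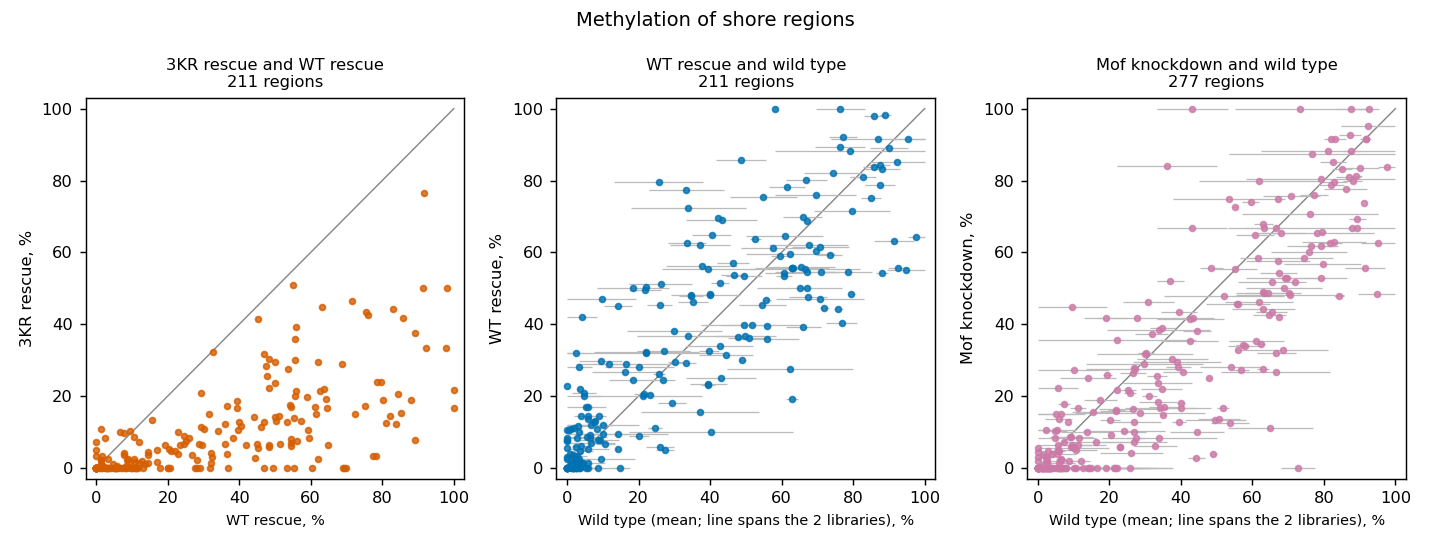
Methylation of shore regions (%, both axes), 1 point per region: 3KR rescue by WT rescue and WT rescue by wild type over 211 regions, and Mof knockdown by wild type over 277 regions, with the grey diagonal marking equal levels. In the first panel 181 points lie below the diagonal, and in the others, where grey lines span the 2 wild-type libraries, points lie on both sides.

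Compared with cells that had no Uhrf1 at all, the 3KR colony kept slightly more methylation at shores. Its mean was 9.92%, against 5.31% and 6.34% in Uhrf1-/-, a difference of 4.09 points, which is 14.2% of the loss (12.1% to 16.3% over the pairs of libraries). Sites outside islands and shores off promoters regained a like share, 14.1% (13.5% to 14.7%). The gain lay in the methylated shores: sites over 80% in the first wild-type library measured 24.6% in 3KR rescue and 11.1% and 14.5% in Uhrf1-/-, and sites under 20% measured 2.77% against 2.08% and 2.55%. All 19 autosomes were higher, by 0.203 to 8.26 points. Among 550 sites, 71 were 20 points or more higher and 4 lower, beside 15.8% higher and 2.8% lower over all sites. A borrowed spread gave 0 edgeR calls (10 sites higher at an unadjusted p under 0.05). The 4 lower sites, named because they are so few, were in Gas2l1, Celf4 and Ephb2 and near Gm4349, and in 3KR rescue each measured 0% of 10 to 22 reads.

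Among regions, 18 of 211 were at least 20 points higher in 3KR rescue and 0 lower, against 13.1% higher and 0.911% lower over all regions. At 30 reads or more the largest were the region listed with Gm46142, at 44.2% of 52 reads against 4.88% and 5.56% in Uhrf1-/-, Ntn1, at 50.9% of 55 reads against 12.8% and 22.6%, an intron of Septin9, a cytoskeletal GTP-binding protein (chr11:117268664-117268707), at 43.5% against 16.4% and 10%, and an exon of Celsr3, an atypical cadherin of planar cell polarity (chr9:108829747-108829892, 7 sites), at 28.3% of 166 reads against 0.8% and 4.84%. At Ntn1, 3KR rescue, at 50.9%, and WT rescue, at 55% of 40 reads, had overlapping intervals, as they did at Chrna4, at 39.3% of 61 reads and 55.8% of 95 reads. In 3KR rescue 25 of the 211 regions lay below both Uhrf1-/- libraries and 96 above both, against 14.2% and 46.5% over all regions. The 4 regions named as furthest below, at 30 reads or more, were empty in 3KR rescue. The methylated reads were 0 of 59 in each of an intron of 4930500L23Rik near the homeobox gene Uncx, an exon of the ciliary kinesin gene Kif19a and an exon of Bsn, a presynaptic scaffold. They were 0 of 45 in an intron of Celf4, an RNA-binding protein. The Wilson interval, which covers counting error only, reached 6.11% in the first 3 and 7.87% in Celf4. Uhrf1-/- measured 17.8% and 11.8%, 6.82% and 7.69%, 2.90% and 11.3%, and 11.5% and 6.78% in these 4 regions in the same order. The regions were chosen by these differences and carry no test.

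Shores were modestly lower in the Mof knockdown library. Over the 1817 sites of the knockdown table the mean was 27.5% in Mof knockdown, against 33.5% and 36.1% in wild type, a difference of -7.31 points. The single Mof knockdown library lay below both wild-type libraries by more than the 2.60 points between them, and has no replicate check. It kept 79.0% of the wild-type mean (76.2% to 82.1% over the wild-type libraries), beside 83.5% (82.1% to 85.0%) outside islands and shores off promoters. Island sites off promoters kept 62.9% (60.6% to 65.4%) and promoters outside islands and shores 79.7% (78.6% to 80.8%). Shore promoters kept 84.1% (79.7% to 88.9%) and island promoters 91.7% (91.6% to 91.8%). A low share was thus not particular to shores off promoters, and the differences were not tested. Exon shores measured 26.3%, against 35.5% and 36.4%, intron shores 29.6%, against 33.8% and 38.0%, and intergenic shores 25.0%, against 31.6% and 32.8%. Of 19 autosomes 18 were lower, and chromosome 15 was higher by 1.41 points over 54 sites. Over the 974 sites shared with the rescue table, Mof knockdown averaged 27.0%, 3KR rescue 9.56%, WT rescue 35.6%, Uhrf1-/- 5.50% and 6.50%, and wild type 33.3% and 35.2%.

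In points, the widest gap under Mof knockdown was in the middle range, though narrowly so with the wild-type libraries swapped. Outside islands and shores it was also in the middle (-16.2 points, and -13.2 swapped). At shore promoters it was in the highest bin (-17.6 points, and -13.5 swapped). Sites of 20% to 80% in the first wild-type library measured 40.0% in Mof knockdown and 54.6% in the second wild-type library (641 sites). Sites over 80% measured 71.2% against 81.2% (280 sites), and sites under 20% measured 4.90% against 8.80% (896 sites). With the wild-type libraries swapped, the differences were -9.21, -8.80 and -2.32 points for the middle, high and low bins, and all were still lower. The share of wild type kept was 73.3%, 87.6% and 55.7% in these bins, or 80.3%, 88.7% and 61.6% swapped. By share, the low bin thus lost most. Outside islands and shores the shares were 76.8%, 87.4% and 61.8%, or 79.4%, 89.0% and 64.6% swapped. In the middle and high bins the order of shores off promoters and sites outside changed with the library, and it was not tested. Among 657 sites, 136 were 20 points or more lower in Mof knockdown and 24 higher, beside 21.2% lower and 4.34% higher over all sites, which is near the share at shores in both directions. The second wild-type library against the first gave 84 lower and 143 higher of 946 shore sites, beside 8.91% and 13.9% over all sites. Borrowing the replicated groups' spread, edgeR made 0 calls in either direction (an unadjusted p under 0.05 at 11 lower and 2 higher sites). The authors' deposited table lists 172 of 1817 shore sites lower and 37 higher with a q-value under 0.05 and 20 points, beside 12.3% and 1.98% over all sites.

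Of 277 regions, 47 were at least 20 points lower in Mof knockdown and 7 higher, against 21.5% lower and 1.97% higher over all regions. Among regions with at least 30 reads, the difference was largest at Ntn1, at 48.4% of 95 reads in Mof knockdown and 100% and 89.5% in wild type. It was followed by a region 30128 bp from Gm2808 (chr17:6478868-6478958, 7 sites), at 2.90% of 69 reads against 42.0% and 46.7%, by an exon of Slc25a51, a mitochondrial NAD carrier (chr4:45399614-45399720), at 12.5% of 32 reads against 59.0% and 48.4%, and by an intron of Plod1, a collagen lysyl hydroxylase (chr4:147935246-147935348), at 32.8% against 55.9% and 81.2%. The regions named as higher were an intron of Hspg2, which encodes perlecan, at 72.7% of 33 reads against 55.97% and 54.2%, a region 284 bp from Ehbp1, at 46.3% against 23.7% and 38.0%, an intron of Actn3, the alpha-actinin of fast muscle, at 52.2% against 33.3% and 40.8%, and Eml1, at 100% of 30 reads against 83.3% and 91.7%. Ntn1 was below both wild-type libraries in Mof knockdown, both rescues and Uhrf1-/-, whereas Eml1 was at 23.8% in 3KR rescue, 78.7% in WT rescue and 8.57% and 5.56% in Uhrf1-/-.

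Genes were also read by list, through the gene a shore site lies in or is listed nearest to, with the 545 genes of the rescue table and the 666 of the knockdown table as the background. Signalling genes (12 of 117 measured, 34 sites) had a median difference of -41.6 points between Uhrf1-/- and wild type, against -30.5 over all genes. Of the 12, 8 were lower by at least 20 points and 0 higher, against 59.6% lower over all genes. Ephb2 (8 sites) measured 27.4% in 3KR rescue, 96.2% in WT rescue, 21.1% and 11.2% in Uhrf1-/- and 73.1% and 76.0% in wild type. Wnt10a, a Wnt ligand (3 sites), measured 0%, 17.9%, 0% and 0%, and 33.3% and 25% in that order, and Inhbb, an activin subunit gene (6 sites), was under 12% in every library. Heyl, the Notch-responsive repressor, is given above by its pooled reads.

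Lineage transcription factors formed the list with the most measured genes. Of 155, 18 had shore sites (62 sites, of which those in Hoxb3 and Hoxb4 overlap), the median difference between Uhrf1-/- and wild type was -3.76 points, against -30.5 over all genes, and 3 of the 18 were at least 20 points lower, against 59.6% of all genes. Wild-type means in the list ran between 0% and 90.9%, the highest at the 1 site listed with Irx5. Only Nkx6-1, Hoxb3, Hoxc10 and Irx5 were at 20% or more in wild type (means of 49.9%, 26.8%, 38.9% and 90.9%). The other factors started under 20% and could not fall by 20 points. Tbx2, a T-box factor (11 sites), measured 4.29% in 3KR rescue, 19.99% in WT rescue, 0.627% and 2.87% in Uhrf1-/- and 4.03% and 4.81% in wild type. WT rescue was the highest library there. Nkx6-1 (6 sites) was lower in WT rescue than in wild type, at 5.34% in 3KR rescue, 16.3% in WT rescue, 4.76% and 12.3% in Uhrf1-/- and 47.8% and 51.9% in wild type. Zic4 (5 sites), a zinc finger factor, was at or under 7.36% in all 6 libraries. Across the 18 factors WT rescue was above wild type at 10 and below at 5, with a median of 3.78 points, against a median of 0 over all genes. Hoxb3 and Hoxb4, which share sites, are both among the 10. By at least 20 points, 1 factor was higher and 1 lower, against 15.0% higher and 12.8% lower over all genes.

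The remaining lists held few measured genes. Of the methylation machinery, Ehmt1, a histone methyltransferase (2 sites), measured 0% in 3KR rescue, 34.0% in WT rescue, 20% and 33.3% in Uhrf1-/- and 56.8% and 46.0% in wild type, Kdm2b, a CpG-binding demethylase gene (2 sites), measured 0%, 32.7%, 11.1% and 0%, and 34.8% and 40%, and Setdb1 (1 site) measured 0%, 29.2%, 0% and 0%, and 100% and 60%. The median of these 3 was -31.9 points between Uhrf1-/- and wild type. The 1 imprinted gene, Cdh15 (3 sites), measured 0% in 3KR rescue, 29.4% in WT rescue, 0% and 15.3% in Uhrf1-/- and 41.7% and 45.1% in wild type, and the 1 germline gene, Tdrd1 (1 site), 23.5%, 64.9%, 38.5% and 0%, and 88.9% and 84.6%. Sox2, the 1 pluripotency gene (2 exonic sites), was under 5% in all 6 libraries. Set on single sites and few reads, these values are descriptions.

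In the knockdown table the signalling list (15 genes, 43 sites) had a median of 0 points between Mof knockdown and wild type and the lineage factors (20 genes, 78 sites) of -0.26 points, against -5.03 over all 666 genes, of which 23.6% were at least 20 points lower. In each of these lists 1 gene was at least 20 points lower, and 2 lineage factors, Runx1 (83.7%, against 24.4% and 51.3%, at 3 sites) and Meis1 (100%, against 66.7% and 66.7%, at 1 site), were higher, beside 5.26% higher over all genes. These 2 are named because they are so few. Runx1 had 25 reads in Mof knockdown and 27 and 28 in wild type, and Meis1 had 6 reads in each library. Genes under 20% in wild type, such as Pax2, could not fall by 20 points. Pax2 (9 sites) measured 3.32% in Mof knockdown and 8.82% and 4.99% in wild type, and Irx4 (7 sites) 23.4%, against 11.4% and 28.6%. Ephb2 (4 sites) measured 75.8%, against 73.2% and 81.0%, and Wnt10a (5 sites) 9.09%, against 20% and 20.7%. Of 3 pluripotency genes 2 were at least 20 points lower, Esrrb at 0% against 33.3% and 30.3% and Stat3 at 20% against 50% and 62.5%, each at 1 site. Esrrb had 14 reads in Mof knockdown and 6 and 33 in wild type, and Stat3 had 5 in Mof knockdown and 6 and 8 in wild type. Sox2 (5 sites) measured 0% against 5.38% and 0%. The median was -3.42 points over 2 imprinted genes, -13.4 over 2 germline genes and -16.2 over 2 genes of the methylation machinery.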

How the data were processed

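Per the submitters' processing notes, the mouse build was mm10 and the tools were cutadapt, Trim Galore and BSMAP 2.73. Their order and settings, the methylation caller and the test the deposited values come from are not stated. Per the file headers, the authors give total, methylated and unmethylated read counts per cytosine site and library. The fraction of methylated reads that the authors deposited was recomputed and is given as a percent. A p-value and q-value against wild type, per the file headers, are used only where the authors' table is named. Sites had 5 reads or more in all libraries of their table, and libraries were compared within a table.

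The shore sites, lists and tests were chosen with earlier results of these data known. Columns were mapped to samples by name; the digit closing the name of the WT rescue column is unexplained. Site means are unweighted, and a region's level is its pooled methylated over total reads. For Uhrf1-/- and wild type, edgeR 4.0.16 (with limma 3.58.1 and R 4.3.3) was fitted to the counts with library intercepts and the spread of all 6 libraries. The fit covered all sites with a minimum of 10 reads in these 4 libraries and all regions, with Benjamini-Hochberg adjustment over all of them. A trial on simulated reads set the same replicate spread everywhere, so it does not show how the test performs on these libraries. Groups of 1 library were compared by size (20 points, 10 reads). Named regions were the 10 largest called falls with no overlap of libraries, the 4 largest differences each way outside the other group's range with 30 reads a library, the 3 highest Uhrf1-/- means, and up to 4 genes of each of 6 lists by number of sites. Some items that this rule names are not reported here. Gene names come from RefSeq (GRCm38.p6): 1339 of 1416 and 1677 of 1817 sites had a listed start that matched a gene, 387 and 468 of them only by lying inside one. Replicate numbers did not pair the libraries (2 pairs, correlation of replicate deviations -0.00919 over shore sites). Wilson 95% intervals cover counting error only, as no molecular identifiers were used. The remaining steps ran in Python 3.11.15 with numpy 2.4.6, pandas 2.3.3, scipy 1.17.1 and matplotlib 3.10.9.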

Additional observations from a re-analysis of the deposited data

How the results depend on the processing

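Every mean difference kept its direction under every alternative except that of WT rescue from wild type. That difference was 1.49 points and changed to -0.23 points at sites 2000 bp or more from the nearest start and -1.32 points at intergenic sites, and it was 0.193 points with at least 10 reads, 0.177 points with pooled reads, 2.98 points at exon sites and between 0.365 and 2.62 points without either wild-type library. The difference of Uhrf1-/- from wild type was -15.8 points over the 45 sites with at least 20 reads and -30.8 points at 2000 bp or more. WT rescue was above Uhrf1-/- by 25.8 points with at least 20 reads, 28.1 points with pooled reads, 32.2 points in exons and 28.1 points in intergenic stretches. 3KR rescue differed from WT rescue by -24.7 points with at least 20 reads, -24.8 points with pooled reads, -28.2 points in exons and -24.8 points in intergenic stretches. Mof knockdown differed from wild type by -9.62 points in exons and by between -8.61 and -6.01 points without either wild-type library.

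Counts moved with depth, since fewer or more sites enter. With at least 5 reads, the sites called lower in Uhrf1-/- were 173 of 1416, and sites past 20 points were 758 higher in WT rescue than Uhrf1-/-, 702 lower in 3KR rescue than WT rescue, 195 higher in 3KR rescue than Uhrf1-/-, 210 lower and 255 higher in WT rescue than wild type, and 390 lower and 128 higher in Mof knockdown. With at least 20 reads these were 8 of 45, 32, 184, 3, 25 and 33, and 31 and 2 in the same order. At 30 points, 30 sites were higher in 3KR rescue than Uhrf1-/-, 52 lower and 48 higher in WT rescue than wild type, and 69 lower and 9 higher in Mof knockdown. Without either library of the second group the counts ran from 396 to 495 (WT rescue above Uhrf1-/-), 85 to 110 (3KR rescue above Uhrf1-/-), 121 to 158 lower and 142 to 142 higher (WT rescue and wild type), and 154 to 213 lower and 47 to 49 higher (Mof knockdown). edgeR with the spread of the replicated groups called 7 sites for WT rescue above Uhrf1-/- and 0 for each other comparison of single libraries.

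Sites called lower in Uhrf1-/- numbered 159 by limma on the log2 ratio, and between 0 and 0 without any 1 library (99 to 115 lower at an unadjusted p under 0.05). With the replicate block, which rests on numbers that do not pair the libraries, 22 sites and 88 regions were called. Regions called lower numbered 156 of 327 with at least 2 sites, 28 of 58 from sites of at least 10 reads, and between 0 and 84 without any 1 library. The causes of these changes were not tested, beyond the smaller number of sites or libraries that a setting leaves. For named regions of single libraries, unweighted means of sites, an alternative chosen after seeing the data, reversed no direction. Taking each library of a replicated second group alone could not reverse a direction, since these regions were picked to lie outside that group's range. The unweighted mean moved Septin9 to 24.9 points, Chst5 to 26.3 points and Nkx6-1 to -40.3 points. Depth limits single sites, and 3 groups have 1 library.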
